A study of Mus musculus with 4 samples.

Results

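The Wnt pathway genes described here are 52 named mouse genes for Wnt ligands, the proteins that secrete, receive or oppose them, and the machinery that controls beta-catenin. They were chosen by name from a list of pathway members, and Fzd1 was left out because it lies in a block of chromosome 5 genes with low values in the knockdown cells. Of the 52, 43 had values among the 12967 gene symbols of the deposited table. A mean over the 4 libraries of at least 5 CPM (reads per 1000000 reads of a library) was reached by 33 of them, and these were compared, as were 10283 genes in all. The other 10 stayed below that level. No row was found for Wnt3, Wnt3a, Wnt4, Fzd8, Ror2, Dkk1, Nkd1, Axin2 or Pygo1, nor for any of their listed synonyms.

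In the canonical Wnt pathway, a secreted and lipid-modified Wnt protein binds a Frizzled receptor together with LRP5 or LRP6. Without ligand, a complex of APC, Axin and the kinase GSK3 marks beta-catenin for destruction. With ligand, Dishevelled proteins help to inactivate that complex, and beta-catenin enters the nucleus and works with TCF and LEF factors. The same protein also holds E-cadherin to the cytoskeleton at cell junctions, and the pathway is a known driver of mammary tumours in mice.

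All 4 samples came from 4T1, an established BALB/c mouse line of metastatic mammary carcinoma, grown in puromycin. One line stably expressed a control shRNA (shSCR) and the other an shRNA against CerS4, the enzyme ceramide synthase 4 (shCerS4). RNA was recovered from each line with an antibody against Caprin-1, which binds RNA and is found in stress granules, and with IgG as the background control. This gave 4 groups of 1 library each, an IgG and a Caprin-1 library of shSCR cells and the same pair of shCerS4 cells. The study's main comparison was of Caprin-1-bound mRNA between the lines, in work on a complex of PD-L1 with Caprin-1. Whether each line was a clone or a pool was not given in the sources used here.

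With 1 library per group there is no replicate spread, so no significance test was made. Values in brackets bound a log2 ratio at the 95% level from read counting alone, and leave out amplification and differences between cultures. A gene was called past 2-fold when its ratio reached 2-fold and its interval excluded 0. Estimated depth per library, in units of 1000000 reads, was 19.7 to 27.0. The deposited table held no row for Cers4, so the knockdown was not checked here. All 8 epithelial markers had a mean of at least 5 CPM, among them Krt8, Krt18, Epcam and Cdh1, with summed levels of 4152 to 9945 CPM per library. Of the fibroblast markers 4 of 6 had rows, with summed levels of 20.8 to 66.7 CPM that came mainly from Pdgfra. Of the leukocyte markers 2 of 6 had rows (15.4 to 49.1 CPM, mainly Cd68), and Ptprc, the defining one, had none. Of the endothelial markers 1 of 4 had a row (0 to 0.666 CPM). A lower level in a library cannot be told apart between fewer cells that carry the mRNA and less of it per cell.

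**Figure D1:**
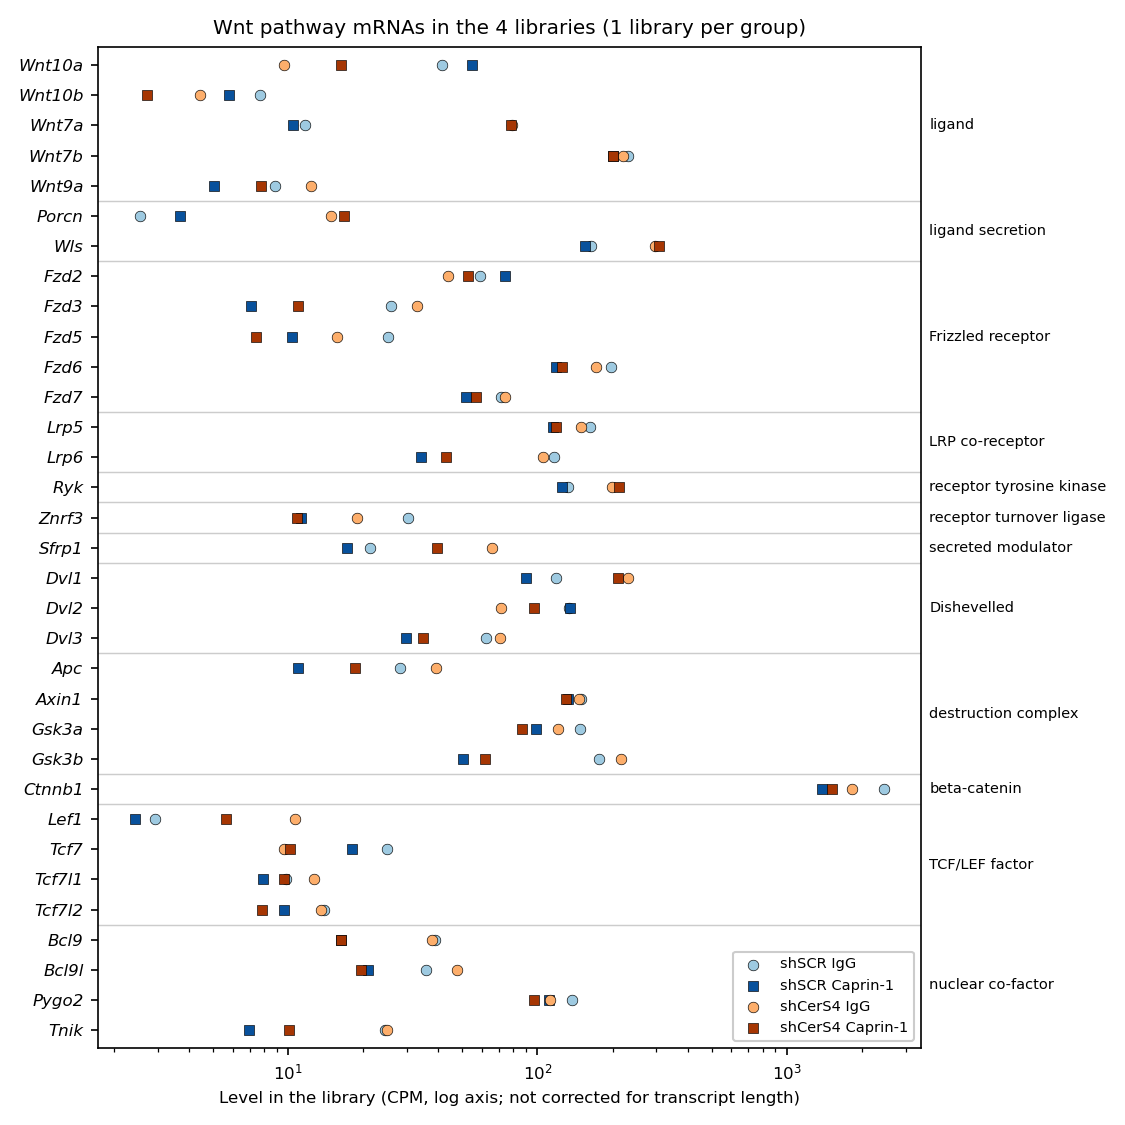
The plot gives the level of the 33 compared Wnt pathway genes in each library, in CPM on a log axis, with 1 point per library and genes grouped by role. Wnt7a and Porcn are higher in both shCerS4 libraries, Wnt10a is higher in both shSCR libraries, and Gsk3b, Lrp6 and Tnik are lower in both Caprin-1 libraries.

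The first comparison set shCerS4 against shSCR cells. In the Caprin-1 precipitates, 5 of the 33 genes were higher past 2-fold in shCerS4 cells (Wnt7a, Porcn, Dvl1, Lef1 and Sfrp1), against 6.25% of all compared genes. Another 2 were lower (Wnt10a and Wnt10b), against 4.95%. Porcn and Lef1 were under 5 CPM in both shSCR libraries, and Wnt10b was under it in both shCerS4 libraries. These genes reached the mean of 5 CPM only through the line where they were higher. The minimum thus favoured their calls, here and in the counts that follow. In the IgG precipitates 4 were higher (Wnt7a, Porcn, Lef1 and Sfrp1), against 5.69%, and 2 were lower (Wnt10a and Tcf7), against 5.34%. These 2 comparisons share no library, and 5 genes were past 2-fold in the same direction in both, which is 5 of 7 with Caprin-1 and 5 of 6 with IgG. Over all genes 7.87% were past 2-fold in the same direction in both, 809 of 10283. Those 809 stand beside 643 higher and 509 lower genes with Caprin-1, and 585 and 549 with IgG. Most genes called in 1 precipitate were thus called in the other too, among all genes as among the members. The members' median log2 ratio was 0.13 with Caprin-1 and −0.03 with IgG, beside 0.15 and 0.10 over all genes. Ratios of the same sign in both precipitates were found for 28 of the 33 members, against 82.8% of all genes. Under trimmed-mean scaling the higher and lower calls over all genes went from 643 and 509 to 442 and 639 with Caprin-1, while those of the members did not change.

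Among the ligands, Wnt7a had the highest ratio. It encodes a ligand able to signal through beta-catenin or other branches according to the receptor. It stood at 11.6 CPM in shSCR IgG, 10.4 in shSCR Caprin-1, 78.8 in shCerS4 IgG and 78.1 in shCerS4 Caprin-1. Both shCerS4 libraries were far above both shSCR libraries, and the precipitate made little difference. The log2 ratio was 2.90 [2.72, 3.09] with Caprin-1 and 2.76 [2.56, 2.96] with IgG, which is 7.47-fold and 6.76-fold. The gene lies on chromosome 6 from 91363981 to 91411353 (GRCm38, the same assembly as the mm10 build of the reads).

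Wnt10a, a ligand needed for teeth and skin appendages, went the other way. It stood at 41.6 CPM in shSCR IgG, 54.7 in shSCR Caprin-1, 9.66 in shCerS4 IgG and 16.3 in shCerS4 Caprin-1. Its log2 ratios were −1.74 [−1.91, −1.58] with Caprin-1 and −2.10 [−2.34, −1.88] with IgG. It was 3.35-fold and 4.29-fold lower in shCerS4 cells, and both shCerS4 libraries were below both shSCR libraries. Wnt6, the ligand gene 6.70 kb away on chromosome 1, had 2 and 20 estimated reads in the shSCR IgG and Caprin-1 libraries and 0 in both shCerS4 libraries. It was too low for a ratio, since 0 reads allow a level of up to 0.152 and 0.122 CPM there. Wnt10b, a ligand studied as a mammary oncogene in mice, was past 2-fold only in the Caprin-1 precipitates. It stood at 7.72 and 5.77 CPM in the IgG and Caprin-1 libraries of shSCR cells and at 4.42 and 2.72 CPM in those of shCerS4 cells. Its ratios were −1.08 [−1.52, −0.67] with Caprin-1 and −0.80 [−1.20, −0.41] with IgG, and these intervals overlap.

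The other measured ligands differed less. Wnt7b, which has the most CPM among the ligands, stood at 231 and 202 CPM in the shSCR IgG and Caprin-1 libraries and at 220 and 201 CPM in those of shCerS4 cells. All 4 libraries lay close together, with log2 ratios of −0.01 [−0.06, 0.05] and −0.07 [−0.13, −0.01]. Wnt7a and Wnt7b, which encode closely related ligands, thus had very different ratios. Wnt9a stood at 5.03 to 12.4 CPM, with ratios of 0.63 and 0.48. The ligands Wnt5a, Wnt5b and Wnt11 had at most 0.990 CPM in any library. Wnt5a, the usual ligand of the branch that bypasses beta-catenin, had 18 estimated reads in shCerS4 IgG and less than 1 in each other library.

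Both genes for ligand release had positive ratios. Porcn encodes the porcupine acyltransferase, which attaches the lipid that Wnt proteins need for secretion. It stood at 2.55 and 3.67 CPM in shSCR IgG and Caprin-1, and at 14.8 and 16.7 CPM in shCerS4 IgG and Caprin-1. The shCerS4 libraries were higher in both precipitates, with log2 ratios of 2.18 [1.87, 2.52] with Caprin-1 and 2.53 [2.10, 2.99] with IgG. Wls encodes the carrier that takes lipid-modified Wnt to the cell surface. It stood at 164 and 155 CPM in shSCR cells and at 296 and 307 CPM in shCerS4 cells. With ratios of 0.99 [0.93, 1.04] and 0.85 [0.79, 0.91], it lay just under the 2-fold limit. Its row with the most reads alone gave 1.03 with Caprin-1 but 0.42 with IgG. Its other rows gave 0.95 each with Caprin-1, and 1.12 and 1.72 with IgG.

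The compared receptor genes stayed under 2-fold in both precipitates. Of the Frizzled genes, Fzd6 stood at 198 and 119 CPM in shSCR IgG and Caprin-1 and at 172 and 125 CPM in shCerS4 cells. The widest ratios were those of Fzd3 (0.62 with Caprin-1 and 0.35 with IgG) and Fzd5 (−0.48 and −0.68). Fzd2 had −0.49 and −0.42, and Fzd7 had 0.14 and 0.05. The co-receptor genes Lrp5 and Lrp6 had Caprin-1 ratios of 0.03 and 0.33 and IgG ratios of −0.12 and −0.15. Ryk, which encodes a Wnt-binding receptor of the tyrosine kinase family, stood at 132 and 126 CPM in shSCR cells and 199 and 212 CPM in shCerS4 cells. Its ratios were 0.76 [0.69, 0.82] with Caprin-1 and 0.59 [0.52, 0.66] with IgG. The Ryk row with the most reads alone gave 0.91 with Caprin-1 and 1.42 with IgG, the latter past 2-fold. Receptor genes below the level of comparison are given as estimated reads, first in the IgG and Caprin-1 libraries of shSCR cells and then in those of shCerS4 cells. Fzd4 had 61, 51, 159 and 108 reads, and Ror1, a receptor of non-canonical Wnt5a signals, had 36, 13, 103 and 50. In both, each shCerS4 library exceeded the shSCR library of the same precipitate, and with the minimum lowered to 1 CPM both genes were higher past 2-fold in shCerS4 cells in both precipitates. Fzd9 had 20 to 34 reads. Rnf43, which like Znrf3 encodes a ligase that removes Frizzled from the surface, had 65 to 99. Fzd4 overlaps Tmem135, whose mean was 33.9 CPM, and read strand is not given in the sources used here.

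Of the genes that oppose the pathway, Sfrp1 was higher in shCerS4 cells. It encodes a secreted protein that binds Wnt ligands, and it stood at 21.2 and 17.3 CPM in shSCR IgG and Caprin-1 and at 65.5 and 39.4 CPM in shCerS4 IgG and Caprin-1. Both shCerS4 libraries were above both shSCR libraries, and the ratio was 1.19 [1.03, 1.35] with Caprin-1 and 1.62 [1.47, 1.79] with IgG. Znrf3, whose ubiquitin ligase removes Frizzled from the cell surface, had −0.04 with Caprin-1 and −0.68 with IgG. Nkd2, a Dishevelled-binding inhibitor below the level of comparison, had 8 reads in each shSCR library, 42 in shCerS4 IgG and 35 in shCerS4 Caprin-1. Dkk3, which belongs to the Dickkopf family, had 21.9 estimated reads in shSCR IgG and under 4 in each other library.

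The 3 Dishevelled genes, which relay the signal from Frizzled, did not share a direction. Dvl1 stood at 119 and 89.8 CPM in shSCR IgG and Caprin-1 and at 230 and 210 CPM in shCerS4 IgG and Caprin-1. The ratio was 1.22 [1.16, 1.30] with Caprin-1, past 2-fold, and 0.95 [0.88, 1.03] with IgG. The Dvl1 row with the most reads alone gave 1.05 with IgG, past 2-fold. Dvl2 stood at 133 and 135 CPM in shSCR cells against 71.6 and 96.9 CPM in shCerS4 cells, with ratios of −0.47 [−0.55, −0.40] and −0.90 [−0.99, −0.80]. Dvl1 and Dvl2 thus lay on opposite sides of 0 in both precipitates. Dvl3 had 0.23 and 0.18.

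The destruction complex and beta-catenin itself differed little in comparison. Axin1, the scaffold, had ratios of −0.03 in both precipitates and stood at 130 to 150 CPM in the 4 libraries. Gsk3a had −0.19 and −0.29, Gsk3b had 0.29 in both, and the tumour suppressor gene Apc had 0.77 [0.55, 0.98] and 0.49 [0.33, 0.65]. The Apc row with the most reads alone gave 1.67 with Caprin-1, past 2-fold, while its other rows gave 0.28 and −0.46. Ctnnb1 stood at 2444 CPM in shSCR IgG, 1387 in shSCR Caprin-1, 1831 in shCerS4 IgG and 1516 in shCerS4 Caprin-1. The IgG library was higher than the Caprin-1 library in both lines, and by more in shSCR cells. Its ratio was 0.13 [0.11, 0.15] with Caprin-1 and −0.42 [−0.44, −0.40] with IgG. The Caprin-1 value was −0.01 under trimmed-mean scaling and 0.02 under upper-quartile scaling, so its direction was not settled.

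The TCF and LEF genes split. Lef1, whose protein is both a partner of beta-catenin and, in many cells, a product of its target genes, stood at 2.92 and 2.44 CPM in shSCR IgG and Caprin-1. In shCerS4 cells it stood at 10.7 CPM with IgG and 5.63 CPM with Caprin-1, ratios of 1.86 [1.44, 2.31] and 1.20 [0.77, 1.65]. Lef1 has 5 rows at low levels, which did not share a direction. Ordered by level, rows 1 to 3 had ratios above 0 in both precipitates. Rows 4 and 5, at most 0.62 CPM in any library, had ratios below 0 in both. Tcf7, which encodes TCF1, had 25.0 and 18.0 CPM in shSCR cells and 9.61 and 10.1 CPM in shCerS4 cells. It was lower in both precipitates, past 2-fold with IgG at −1.38 [−1.63, −1.13] and under it with Caprin-1 at −0.83 [−1.05, −0.60]. Skp1, at a mean of 246 CPM, overlaps Tcf7 on chromosome 11, and since read strand is not given in the sources used here, reads of the 2 genes may not be fully separated. Tcf7l1 and Tcf7l2 had Caprin-1 ratios of 0.28 and −0.29. Of the co-activator genes, Pygo2 stood at 97.2 to 138 CPM with ratios of −0.19 and −0.29. Bcl9 had −0.01 and −0.03, and Bcl9l had −0.09 with Caprin-1 and 0.42 with IgG. Tnik, the kinase that phosphorylates TCF4, had 0.54 [0.26, 0.82] and 0.02 [−0.17, 0.20].

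**Figure D2:**
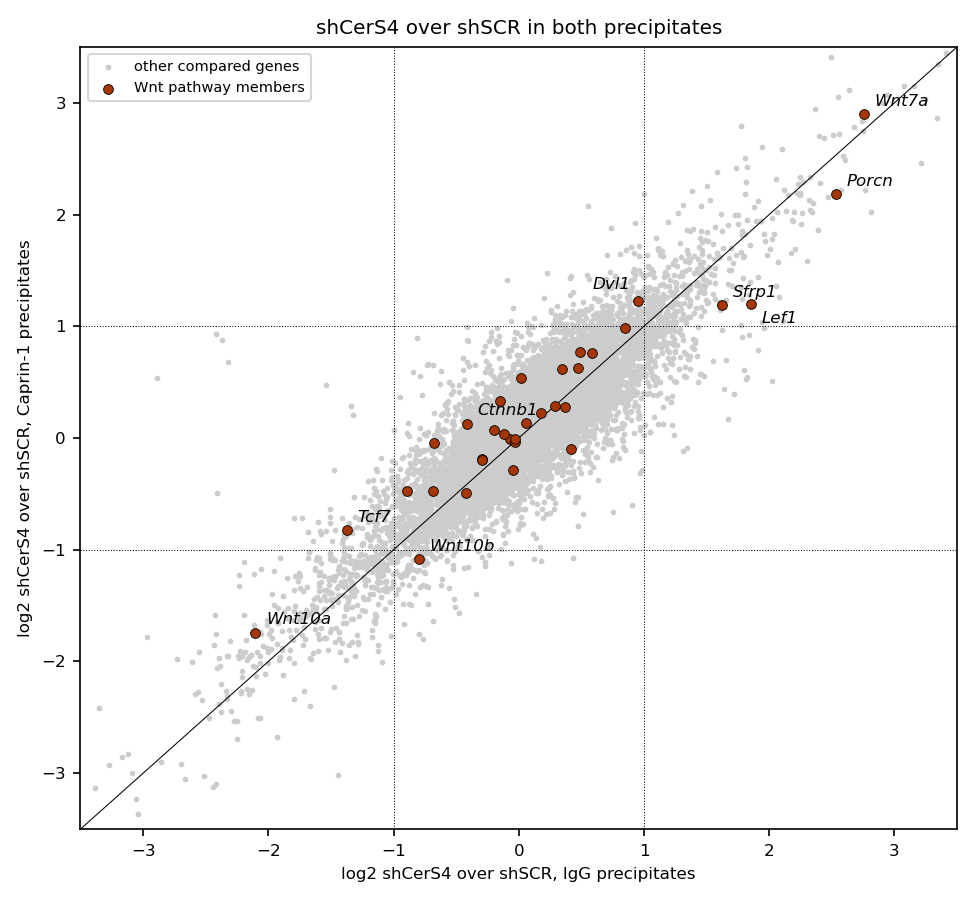
Each point is a compared gene, with the log2 ratio of shCerS4 over shSCR in IgG precipitates on the horizontal axis and in Caprin-1 precipitates on the vertical axis, both cut at 3.5, which leaves 42 other genes outside. The dotted lines mark 2-fold and the solid line equal ratios, and Wnt7a, Porcn, Sfrp1, Lef1 and Wnt10a lie past 2-fold on both axes.

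The start sites of the genes past 2-fold in the Caprin-1 precipitates are shown for those with an entry in the RefSeq promoter set, since Wnt7a, Dvl1 and Lef1 were higher together and Wnt10b was lower. Each sequence is the 250 bases before the start given in that set on GRCm38.p6, 5′ to 3′, from RefSeq. For Wnt10b that start lies inside the span of the gene, which ends at 98778206, so the window overlaps the gene. Capitals mark any match to the TCF and LEF core, searched on both strands as CTTTG with A or T at each of the next 2 positions, or to the GC box GGGCGG on both strands. 
Wnt7a (chr6:91411354-91411603, minus strand): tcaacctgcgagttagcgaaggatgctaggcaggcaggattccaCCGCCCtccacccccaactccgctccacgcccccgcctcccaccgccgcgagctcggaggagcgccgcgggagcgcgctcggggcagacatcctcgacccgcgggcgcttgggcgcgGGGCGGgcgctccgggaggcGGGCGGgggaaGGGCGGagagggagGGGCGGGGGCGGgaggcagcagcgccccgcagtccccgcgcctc
Dvl1 (chr4:155847152-155847401, plus strand): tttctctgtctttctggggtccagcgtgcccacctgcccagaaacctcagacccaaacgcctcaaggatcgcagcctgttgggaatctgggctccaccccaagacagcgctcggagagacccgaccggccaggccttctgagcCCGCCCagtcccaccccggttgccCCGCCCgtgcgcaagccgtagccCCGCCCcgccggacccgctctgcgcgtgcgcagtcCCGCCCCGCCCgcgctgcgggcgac
Wnt10b (chr15:98778151-98778400, minus strand): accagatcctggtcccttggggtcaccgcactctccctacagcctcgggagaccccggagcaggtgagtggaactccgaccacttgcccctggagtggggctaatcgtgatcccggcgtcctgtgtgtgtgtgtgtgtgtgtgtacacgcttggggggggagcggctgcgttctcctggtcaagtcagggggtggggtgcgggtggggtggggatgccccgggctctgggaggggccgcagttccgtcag
Lef1, first start (chr3:131110047-131110296, plus strand): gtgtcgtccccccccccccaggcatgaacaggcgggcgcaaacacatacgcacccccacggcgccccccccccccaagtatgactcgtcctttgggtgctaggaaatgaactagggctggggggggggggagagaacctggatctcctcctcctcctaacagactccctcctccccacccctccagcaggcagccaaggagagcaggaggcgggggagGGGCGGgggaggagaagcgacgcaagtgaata
Lef1, internal start (chr3:131156044-131156293, plus strand): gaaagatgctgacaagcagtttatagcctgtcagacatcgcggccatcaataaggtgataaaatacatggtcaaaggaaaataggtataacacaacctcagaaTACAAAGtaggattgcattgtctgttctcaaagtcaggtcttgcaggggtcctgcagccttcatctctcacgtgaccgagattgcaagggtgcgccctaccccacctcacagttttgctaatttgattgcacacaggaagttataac
The Wnt7a window held 6 GC boxes, the Dvl1 window 5, the first Lef1 window 1 and the Wnt10b window none. Lef1 has 4 windows in that set, and those shown are the first and the only one with a TCF core match, 147 bases before an internal start (TACAAAG on the printed strand). Of the 33 compared genes, 19 had an entry, with 27 windows. Of these, 4 (14.8%) held a TCF core, beside 9.90% of 10621 windows of all compared genes and 14.8% of all 32851 windows. The GC box was in 81.5% of the members' windows and 60.5% of those of all compared genes. Median GC content was 66.8% in the former and 60.4% in the latter. A match is a run of letters and was not tested for binding.

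The second comparison set Caprin-1 against IgG within each line, to see which mRNAs made up a larger share of the Caprin-1 library. Values are shares of a library, so a ratio below 0 is a smaller share than with IgG, not less RNA. No member was higher past 2-fold with Caprin-1 in either line, against 1.69% of all genes in shSCR and 0.934% in shCerS4 cells. In shSCR cells 9 of 33 were lower past 2-fold, against 13.0% of all genes, and in shCerS4 cells 9 of 33 were lower, against 8.02%. The median log2 ratio of the members was −0.47 in shSCR and −0.46 in shCerS4 cells, beside −0.13 and −0.11 over all genes. Trimmed-mean scaling moved the higher and lower calls over all genes from 174 and 1337 to 498 and 851 in shSCR cells, and from 96 and 825 to 217 and 567 in shCerS4 cells. The 2 lines share no library, and 8 genes were lower past 2-fold in both, Fzd3, Fzd5, Lrp6, Dvl3, Apc, Gsk3b, Bcl9 and Tnik, against 6.81% of all genes (700 of the 1337 and 825 lower in each line). Znrf3 was lower past 2-fold only in shSCR cells, at −1.44 against −0.80, and Bcl9l only in shCerS4 cells, at −1.29 against −0.78.

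Gsk3b, one of the 2 kinases that mark beta-catenin, had among the lowest ratios in both lines. It stood at 176 CPM with IgG and 50.4 with Caprin-1 in shSCR cells, and at 216 and 61.6 CPM in shCerS4 cells. Against IgG its ratio was −1.80 [−1.89, −1.71] and −1.81 [−1.89, −1.72], so the 2 lines gave nearly the same value for its summed rows. Its larger row gave −1.47 in shSCR and −1.73 in shCerS4 cells, and its smaller row −3.12 and −2.21. Its paralog Gsk3a had −0.58 [−0.66, −0.51] and −0.48 [−0.56, −0.39]. The paralogs Lrp5 and Lrp6 differed in the same way. Lrp6 stood at 117 and 34.2 CPM with IgG and Caprin-1 in shSCR cells and at 106 and 43.0 CPM in shCerS4 cells, ratios of −1.78 [−1.89, −1.67] and −1.30 [−1.40, −1.19]. Lrp5 stood at 162 and 116 CPM and at 149 and 119 CPM, ratios of −0.48 and −0.33.

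Fzd3, a receptor known for axon guidance and planar polarity, stood at 25.9 and 7.10 CPM with IgG and Caprin-1 in shSCR cells and at 32.9 and 10.9 CPM in shCerS4 cells. Its ratios were −1.86 [−2.11, −1.62] and −1.59 [−1.81, −1.39]. Fzd5 stood at 25.1 and 10.3 CPM and at 15.7 and 7.42 CPM, ratios of −1.28 and −1.08. Fzd2 was the Frizzled gene on the other side of 0, at 58.9 and 74.1 CPM in shSCR cells and 43.9 and 52.8 CPM in shCerS4 cells. Its ratios were 0.33 [0.23, 0.44] and 0.27 [0.14, 0.39]. Frizzled genes thus spanned both sides of the middle of the table.

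Tnik stood at 24.5 and 6.96 CPM with IgG and Caprin-1 in shSCR cells and 24.9 and 10.1 CPM in shCerS4 cells, ratios of −1.82 [−2.07, −1.57] and −1.30 [−1.53, −1.08]. Bcl9, which bridges beta-catenin to Pygopus, stood at 38.6 and 16.4 CPM and at 37.8 and 16.3 CPM, ratios of −1.24 and −1.22. Its paralog Bcl9l stood at 35.8 and 20.9 CPM and at 47.7 and 19.5 CPM. The larger Bcl9l row gave −0.52 in shSCR and −2.01 in shCerS4 cells, and the smaller −1.25 and 0.55. Of the 4 compared nuclear co-factors, Tnik and Bcl9 were lower past 2-fold in both lines, Bcl9l in shCerS4 cells, and Pygo2 in neither, at −0.31 and −0.21. Apc stood at 28.0 and 10.9 CPM and at 39.3 and 18.6 CPM, ratios of −1.36 and −1.08. Its row with the most reads alone gave −1.69 in shSCR and −0.62 in shCerS4 cells, the latter under 2-fold. Its other rows gave 0.11 and −2.37 in shSCR and −1.12 and −2.42 in shCerS4 cells. Dvl3 stood at 62.1 and 29.6 CPM and at 70.5 and 34.7 CPM, ratios of −1.07 and −1.02. Znrf3 stood at 30.4 and 11.2 CPM and at 19.0 and 10.9 CPM. Under 3 other scalings (trimmed mean, upper quartile and median of ratios), Dvl3 fell short of 2-fold in both lines and Apc and Fzd5 in shCerS4 cells, which left 8 and 6 genes lower past 2-fold.

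On the other side of 0, Wnt10a had the highest shCerS4 ratio of the members, at 0.40 [0.27, 0.52] in shSCR and 0.76 [0.51, 1.02] in shCerS4 cells. Porcn had 0.52 [0.01, 1.03] and 0.17 [−0.05, 0.39]. Wnt7a had −0.16 and −0.01 and Wnt7b −0.19 and −0.13, so the ligand with the large shCerS4 over shSCR ratio had almost the same share with both antibodies. Ctnnb1 had −0.82 [−0.84, −0.80] in shSCR and −0.27 [−0.29, −0.25] in shCerS4 cells.

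**Figure D3:**
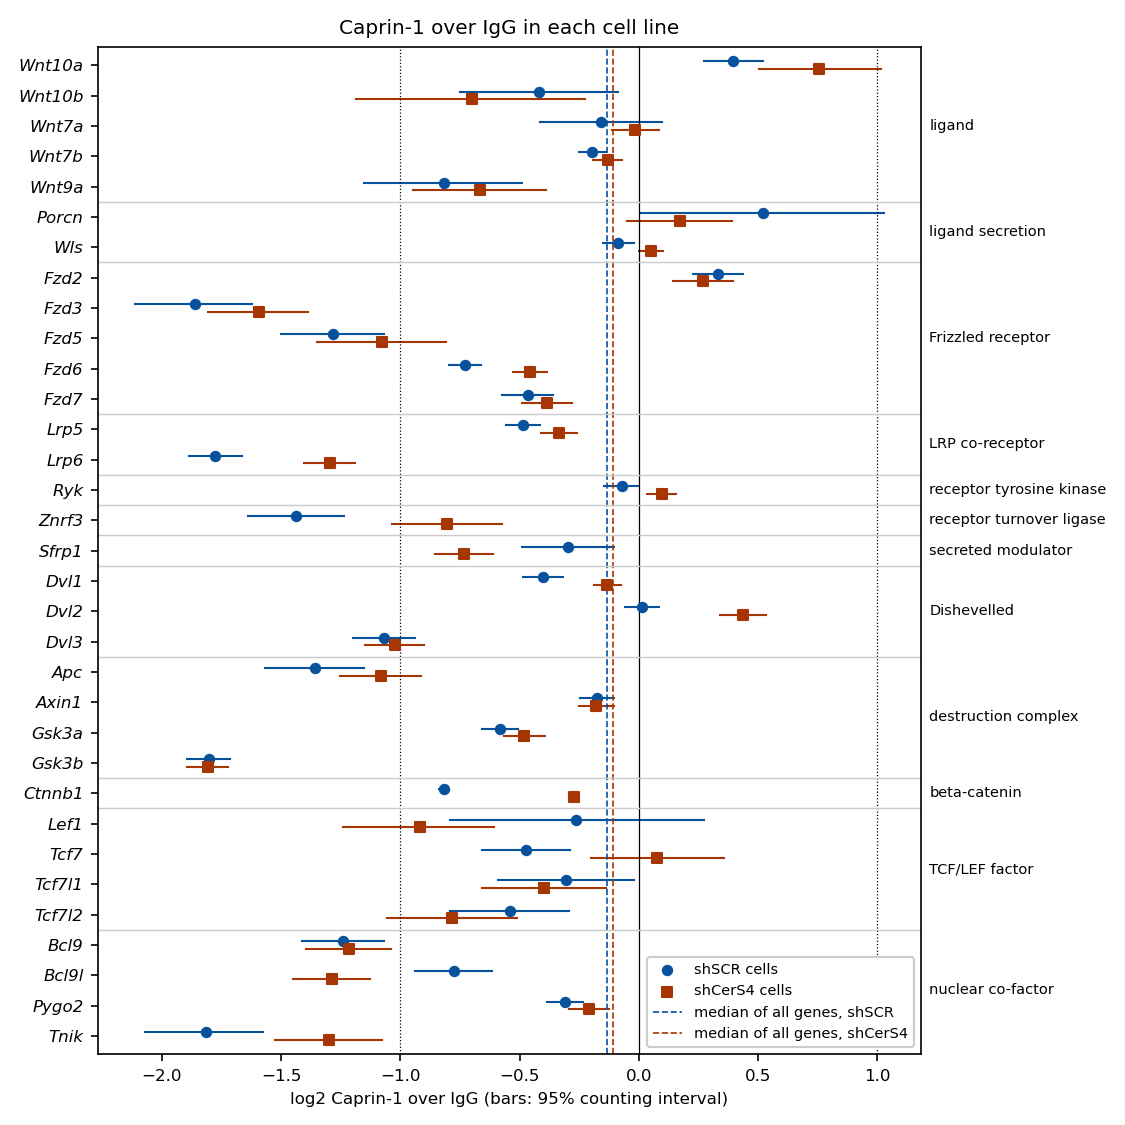
The plot gives the log2 ratio of Caprin-1 over IgG for each of the 33 genes, circles for shSCR and squares for shCerS4 cells, with 95% counting intervals as bars, genes grouped by role and dashed lines at the medians of all genes (−0.13 and −0.11). Gsk3b, Fzd3, Lrp6, Tnik, Bcl9, Apc, Fzd5 and Dvl3 lie left of the dotted 2-fold line in both lines, and no gene lies right of the 2-fold line at 1.

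The genes that were low with Caprin-1 tended to span long stretches of the genome. Over the 33 members, the Spearman correlation of the ratio with genomic span was −0.36 in shSCR and −0.45 in shCerS4 cells, beside −0.54 and −0.48 over 10277 genes with a known span. These are descriptions across genes that share the same libraries, with no p. The 9 genes lower past 2-fold in shSCR cells had a median span of 102 kb (7.19 to 409 kb) and the other 24 had a median of 30.6 kb (3.63 to 192 kb). Gsk3b spans 157 kb and Gsk3a 9.59 kb, whereas Lrp6 spans 120 kb and Lrp5 102 kb. Fzd5, at 7.19 kb, was low with Caprin-1 although it is short. The members had a longer median span, 38.3 kb, than all genes, 23.5 kb, and the part of span in the members' lower median was not tested.

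**Figure D4:**
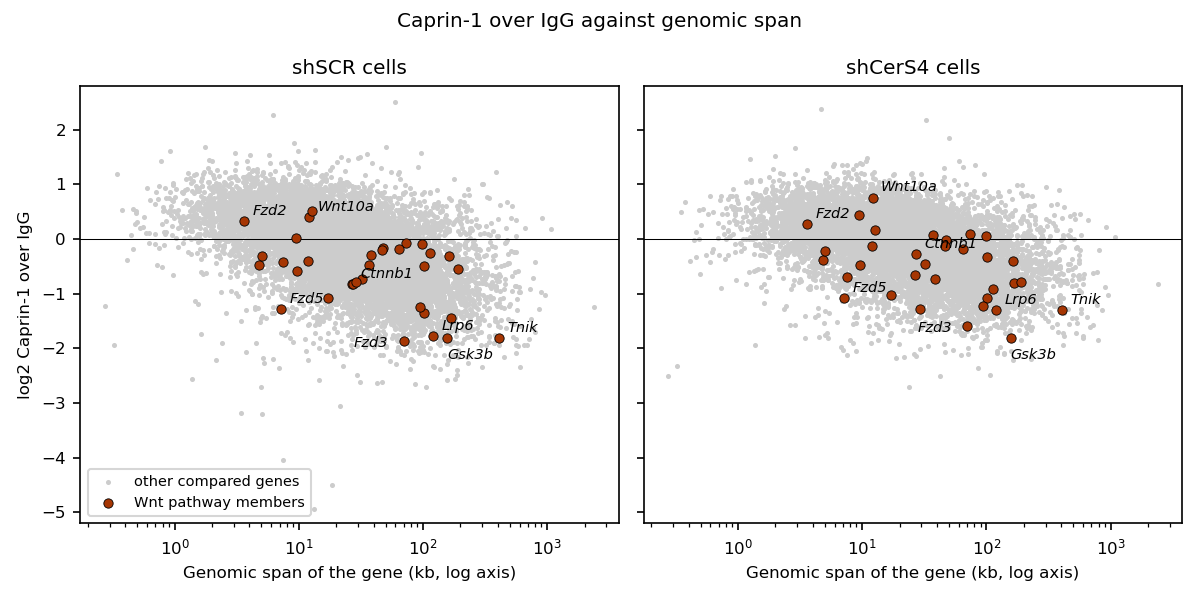
The log2 ratio of Caprin-1 over IgG is plotted against genomic span in kb on a log axis, shSCR cells on the left and shCerS4 cells on the right, with Wnt pathway genes in colour over all compared genes in grey. Gsk3b (157 kb), Lrp6 (120 kb) and Tnik (409 kb) lie low, and so does Fzd5 at 7.19 kb, whereas Lrp5 at 102 kb lies nearer 0.

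The third comparison was of the 2 Caprin-1 over IgG ratios with each other, which uses all 4 libraries. No member was past 2-fold in either direction, against 0.632% of all genes higher and 0.350% lower, rates at which 0 of 33 is near the background. The members' median difference, shCerS4 minus shSCR, was 0.14, beside 0.04 over all genes, and lay between −0.66 for Lef1 and 0.63 for Znrf3. The interval lay above 0 for 13 members, against 29.4% of all genes, and below 0 for 3, against 20.9%. Ctnnb1 had 0.54 [0.52, 0.57], that is, its share with Caprin-1 relative to IgG was less reduced in shCerS4 cells. It lay between 0.48 and 0.51 under the 3 other scalings. The shCerS4 over shSCR ratio of Ctnnb1 was 0.13 with Caprin-1 and −0.42 with IgG, so the larger part of the difference lay in the IgG libraries. Others above 0 were Znrf3 at 0.63 [0.33, 0.93], Tcf7 at 0.55 [0.22, 0.88], Tnik at 0.52 [0.19, 0.85], Lrp6 at 0.48 [0.33, 0.63] and Dvl2 at 0.42 [0.30, 0.54]. For Znrf3, Tcf7 and Dvl2 the shCerS4 over shSCR ratio was below 0 with Caprin-1 (−0.04, −0.83 and −0.47) and further below with IgG (−0.68, −1.38 and −0.90). For Tnik and Lrp6 it was 0.54 and 0.33 with Caprin-1 and 0.02 and −0.15 with IgG. Below 0 were Lef1 at −0.66 [−1.25, −0.06], Bcl9l at −0.51 [−0.74, −0.29] and Sfrp1 at −0.43 [−0.66, −0.21]. The 2 Bcl9l rows went opposite ways, at −1.48 [−1.77, −1.20] and 1.80 [1.38, 2.22], so the gene total stands for neither. Gsk3b and Axin1, at −0.00 [−0.13, 0.12] and −0.00 [−0.10, 0.10] for their summed rows, had the same ratio in both lines to within counting error. Their single rows did not all do so. The larger Gsk3b row had −0.26 [−0.39, −0.12] and the smaller 0.91 [0.59, 1.24]. The larger Axin1 row had 0.06 [−0.05, 0.18] and the smaller −0.33 [−0.55, −0.11].

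The table holds 2 rows for Ctnnb1, with no transcript identifiers, so they are called the larger and the smaller row. The larger row stood at 1880 CPM in shSCR IgG, 952 in shSCR Caprin-1, 1377 in shCerS4 IgG and 1078 in shCerS4 Caprin-1. The smaller row stood at 565, 435, 454 and 438 CPM in the same order. The smaller row varied less over the libraries, and the drop from IgG to Caprin-1 was mostly in the larger one. The larger row held 76.9% (95% Wilson interval 76.5 to 77.3) of Ctnnb1 in shSCR IgG and 68.6% (68.1 to 69.1) in shSCR Caprin-1. In shCerS4 cells it held 75.2% (74.8 to 75.6) with IgG and 71.1% (70.6 to 71.5) with Caprin-1. Its share was therefore smaller with Caprin-1 in both lines. Set against IgG, Caprin-1 gave −0.98 [−1.01, −0.96] in shSCR and −0.35 [−0.38, −0.33] in shCerS4 cells for the larger row. For the smaller row it was −0.37 [−0.41, −0.34] and −0.05 [−0.09, −0.01]. The difference between the lines was 0.63 [0.59, 0.66] for the larger and 0.32 [0.27, 0.38] for the smaller row. These intervals leave out error in how the authors' software divided reads between rows.

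**Figure D5:**
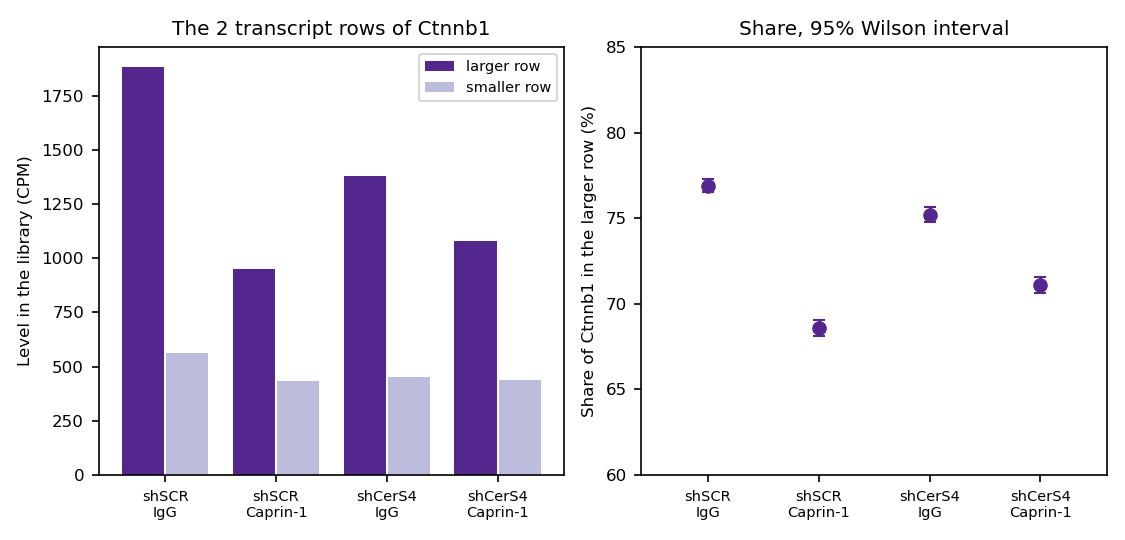
On the left, bars give the CPM of the larger and the smaller Ctnnb1 row in each library, and on the right, points give the share of the larger row in percent with 95% Wilson intervals, on an axis cut to 60 to 85. The share is lower in both Caprin-1 libraries (68.6% and 71.1%) than in both IgG libraries (76.9% and 75.2%).

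Rows of other members, picked after their values were seen, varied more. The smaller of the 2 Wnt7a rows held 1.13% of the gene in shSCR IgG and 0.83% in shCerS4 IgG, but 18.1% (14.0 to 23.0) in shSCR Caprin-1 and 11.8% (10.4 to 13.3) in shCerS4 Caprin-1. The larger row alone gave the same shCerS4 over shSCR picture, at 3.01 with Caprin-1 and 2.76 with IgG. For Tnik, the largest of 3 rows held 68.3% and 64.5% with IgG and 97.0% and 92.0% with Caprin-1 in shSCR and shCerS4 cells. Its ratio was −1.31 in shSCR and −0.79 in shCerS4 cells, so the latter was no longer past 2-fold. For Tcf7 the larger row held 88.3%, 79.5% and 81.7% in shSCR IgG, shSCR Caprin-1 and shCerS4 Caprin-1, but 11.1% (7.38 to 16.4) in shCerS4 IgG, the library behind its 2-fold call. Porcn had 5 rows at low levels, and its row with the most reads gave a Caprin-1 over IgG ratio of −2.14 in shSCR cells where the gene as a whole gave 0.52.

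Other pathway genes, from lists written with general knowledge, were read in the same way. Of 60 further machinery genes 38 were compared, and with Caprin-1 the calls for shCerS4 over shSCR were 3 higher (Amer1, Tle4, Lgr4) and 3 lower (Cby1, Lgr6, Notum), near the 6.25% and 4.95% of all genes. The list's median was 0.19, beside 0.15 over all genes. Lgr6, a receptor for R-spondins, stood at 125 and 96.3 CPM in shSCR IgG and Caprin-1 and at 26.4 and 24.9 CPM in shCerS4 cells, a Caprin-1 ratio of −1.95. Its relative Lgr4 went the other way, at 12.4 and 8.33 CPM against 25.9 and 19.0 CPM, a ratio of 1.19. Notum, whose product removes the Wnt lipid, had −1.82, and the co-repressor genes Tle4 and Tle5 had 1.65 and 0.19. Against IgG, 11 of the 38 were lower past 2-fold in shSCR and 7 in shCerS4 cells, against 13.0% and 8.02% of all genes, with medians of −0.60 and −0.46 beside −0.13 and −0.11. None was higher in either line, where 1.69% and 0.934% of all genes were, so a count of 0 is near the background.

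Described target genes of beta-catenin did not share a direction. Of 28 listed, 20 were compared, with 3 called higher (Ccnd2, Ccn4, Met) and 3 lower (Id2, Apcdd1, Birc5) with Caprin-1, against 6.25% and 4.95% of all genes. Their median was −0.31, beside 0.15 over all genes. Ccn4, first known as a Wnt-induced secreted protein, stood at 13.5 and 5.74 CPM in shSCR IgG and Caprin-1 and at 79.2 and 38.0 CPM in shCerS4 cells, a Caprin-1 ratio of 2.73. Ccnd1, the cyclin D1 gene, stood at 3142 and 2222 CPM in shSCR cells and 1800 and 1174 CPM in shCerS4 cells, a ratio of −0.92 that was under 2-fold. The receptor gene Met had 1.40, the survivin gene Birc5 −2.12 and Id2 −1.91.

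Genes for junction partners of beta-catenin were the last list, with 9 of 11 compared. Cdh1, the E-cadherin gene, stood at 220 and 152 CPM in shSCR IgG and Caprin-1 and at 356 and 317 CPM in shCerS4 IgG and Caprin-1. It was higher past 2-fold with Caprin-1, at 1.06, and under it with IgG, at 0.69, and none of the list was lower past 2-fold. Ctnna1, the alpha-catenin gene, had 0.07 with Caprin-1 and −0.33 with IgG. When the 2 lines' ratios against IgG were subtracted, 8 of these 9 genes lay above 0, as did 56.0% of all genes. The median was 0.33, beside 0.04 over all genes, and Ctnna1 had 0.39.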

How the data were processed

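RNA from 4 precipitates of 4T1 cells was sequenced, 1 library per group. Reads were aligned to mm10 with STAR in Partek, per the submitters' processing notes, which give no versions, and libraries were built from polyadenylated RNA per the labels' protocols. The deposited values are CPM per transcript with 0.0001 added by the authors, although the table's name calls them raw counts. That 0.0001 was subtracted, and rows were summed by symbol. Reads per library were estimated from the spacing of the CPM values. Under 40 CPM, 79.8% to 81.2% of the gene totals were whole reads to a tolerance of 0.05, so no count model was fitted. Of the single transcript rows, 28.9% to 31.3% were whole reads. Estimated reads were rounded for the intervals of ratios and shares, which for single rows are thus more approximate.

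Ratios are log2 of total-scaled reads with 0.5 added. Intervals are exact binomial, and for the difference of ratios come from the summed counting variance. No row's best library was below 10.0 estimated reads, so weaker genes may lack rows. All 52 symbols matched the RefSeq table of GRCm38.p6. The members and lists were chosen with earlier results of these data known. Each compared member is accounted for by role, with all 4 values for Ctnnb1, for the gene with the most CPM in each role and for genes past 2-fold, and the other lists give the gene with the most CPM and up to 4 with the largest ratio. CPM is not corrected for transcript length, so levels of different genes are not compared. Alternatives were 3 other scalings, a CPM minimum of 1, of 20 or none, 5 reads added in place of 0.5, and the row with the most reads alone. Python 3.11.15, SciPy 1.17.1 and pandas 2.3.3 were used.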

Additional observations from a re-analysis of the deposited data

Results flagged for a closer look

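With 1 library per group no difference between lines or precipitates was tested, and 4 members were picked out because 2 effects pointed in opposite directions with both counting intervals off 0. In shCerS4 over shSCR cells, Ctnnb1 had a log2 ratio of 0.13 in Caprin-1 and −0.42 in IgG precipitates. Lrp6 had 0.33 and −0.15, and Fzd6 had 0.0729 and −0.20. For Caprin-1 over IgG, Wls had −0.0853 in shSCR and 0.0512 in shCerS4 cells. The sign of the first value turned under at least 1 other scaling for Ctnnb1, Fzd6 and Wls, and did not turn for Lrp6 under any scaling tried. With the row with the most reads alone, Fzd6 had 0.24 in Caprin-1 and 0.26 in IgG precipitates, so its values no longer pointed in opposite directions.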

How the results depend on the processing

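No paired analysis was possible because each group had 1 library. Of 233 values of members past 2-fold under the 8 alternatives, 219 stayed past 2-fold in the same direction, 14 fell under it and none turned. A filter leaves the ratio of a kept gene as it is, so values under the filters could only stay. All 14 falls came from the other scalings or from the row with the most reads alone. In the Caprin-1 precipitates, 8 members were higher with a filter of 1 CPM or none and 3 with 20 CPM, where 1 was lower. Filters of 1 CPM, none and 20 CPM left 11570, 12967 and 7727 genes in all. Of these, 945, 1274 and 353 were higher, and 333 were lower with 20 CPM. In the IgG precipitates 7, 2 and 8 members were higher with filters of 1 CPM, 20 CPM and none, and 1 and 4 were lower with 20 CPM and none. The counts over all genes were 884, 297 and 1237 higher, and 338 and 1181 lower. Against IgG in shSCR cells, 5 members were lower with a filter of 20 CPM and 2 were higher with none. The counts over all genes were 938 and 419. In shCerS4 cells 1 member was higher with no filter and 1 with the row with the most reads alone. Over all genes, of which 10037 were compared by that row, 357 and 181 were higher. For the difference of ratios, 1 member was higher with no filter, and with that row alone 4 were higher and 1 lower. Over all genes 457 were higher with no filter, and with that row alone 278 were higher and 174 lower. The filters change which genes are counted, and the cause of the changes with the row with the most reads was not tested. Under total scaling all genes had medians of 0.15, 0.10, −0.13 and −0.11 for the 4 ratios, and 0.00, 0.03, 0.07 and 0.03 under trimmed-mean scaling. That scaling turned the balance of higher and lower genes in the Caprin-1 precipitates from 643 and 509 to 442 and 639.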
